A study of Mus musculus with 6 samples.

Results

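The Notch genes described here are 10 genes of one signalling route, namely the receptors Notch1, Notch2 and Notch3, the ligands Dll1, Jag1 and Jag2, the DNA-binding effector Rbpj, and the target genes Hes1, Hey1 and Heyl. They were taken by name from a fixed list, and all 10 were measured among the 22180 genes of the array table. Where a gene had several rows, the row of highest mean over the 6 arrays stood for it. The samples were basal cells, the outer layer of the mammary epithelium, sorted by flow cytometry from digested glands of adult virgin females aged 8 to 14 weeks. One group was Trp53-/-, p16ink4a-/- and p19arf-/- (called KO here, 3 arrays), and the other was wild type (WT, 3 arrays). Trp53 encodes p53, and p16Ink4a and p19Arf are the products of Cdkn2a. Each array is labelled as a biological replicate from 1 mouse, and the strain and the extent of the deletions are not given in the sources used here. Beads against CD45, CD31 and TER119 removed most blood and endothelial cells before the sort, whose staining included CD49f and CD24.

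Notch receptors sit in the cell membrane and are activated by ligands of the Delta and Jagged families on a neighbouring cell. ADAM proteases and then the gamma-secretase complex cut the bound receptor, and the freed intracellular domain joins RBPJ and a Mastermind coactivator on DNA. Genes of the HES and HEY families, which encode transcriptional repressors, are the usual targets. In the mouse mammary gland Notch activity is known for favouring luminal over basal fate, and basal cells are a source of Delta and Jagged ligands. In human keratinocytes NOTCH1 has been described as a p53 target gene.

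RBPJ binds DNA at the word TGGGAA. The 250 bases before the start of 3 genes are shown because they hold this word on one strand or the other and cover the effector itself and 2 HES/HEY family genes outside the 10, Hes5 and Hey2. Capitals mark TGGGAA or its reverse complement TTCCCA. The sequences are RefSeq's, build GRCm38.p6, read 5′ to 3′ on the gene's strand, at chr5:53590096-53590345 (plus strand) for Rbpj (the first of its 2 listed starts), chr4:154960673-154960922 (plus strand) for Hes5 and chr10:30842784-30843033 (minus strand) for Hey2.
Rbpj: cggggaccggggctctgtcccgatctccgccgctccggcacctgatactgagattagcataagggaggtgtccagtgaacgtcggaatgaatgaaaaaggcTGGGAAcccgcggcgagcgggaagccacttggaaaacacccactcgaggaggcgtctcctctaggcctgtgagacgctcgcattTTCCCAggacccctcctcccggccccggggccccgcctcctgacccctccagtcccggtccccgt
Hes5: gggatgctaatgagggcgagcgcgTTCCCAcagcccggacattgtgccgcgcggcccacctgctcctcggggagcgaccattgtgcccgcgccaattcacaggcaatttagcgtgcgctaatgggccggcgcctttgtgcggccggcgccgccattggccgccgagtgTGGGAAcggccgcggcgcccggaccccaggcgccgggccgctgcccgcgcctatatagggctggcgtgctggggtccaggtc
Hey2: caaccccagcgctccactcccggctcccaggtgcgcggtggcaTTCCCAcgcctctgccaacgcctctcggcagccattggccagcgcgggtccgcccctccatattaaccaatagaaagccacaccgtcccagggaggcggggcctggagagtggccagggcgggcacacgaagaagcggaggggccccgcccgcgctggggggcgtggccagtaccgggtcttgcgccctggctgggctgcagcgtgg
The Rbpj and Hes5 windows held 2 matches each and the Hey2 window 1. Of the 10 Notch genes, 7 had an entry in the promoter table and 1 of these, Rbpj, held the word, in both of its windows. Hes1, Hey1 and Heyl, the target genes among the 10, had no entry, so their windows were not read. Counted by window rather than by gene, 21.6% of all 32851 windows of this length held it. A match of 6 letters is a description of the window and shows no binding.

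The deposited values are RMA expression values on the log2 scale, so a difference of 1 is a doubling. The 6 arrays had medians of 5.22 to 5.39 across the 41345 rows. Precision is limited by the number of arrays, since arrays carry no read depth. The basal marker list (11 of 12 measured) averaged 10.52 ± 0.204 in KO and 10.48 ± 0.144 in WT cells (SD, n = 3 each). General luminal markers (12 measured) ranged from 8.09 to 8.55 on the KO arrays and from 8.12 to 9.21 on the WT arrays, all 12 with a lower KO mean. The mean of the fibroblast markers (8 measured, 7 with a higher and 1 with a lower KO mean, none past the threshold) lay at 7.11 to 7.25 in KO against 6.49 to 6.80 in WT. Endothelial markers (10 measured) lay at 5.65 to 5.72 in KO and 5.56 to 5.71 in WT, and pericyte markers (8 measured) at 5.26 to 5.59 in KO and 5.11 to 5.55 in WT. In sorted cells profiled as bulk RNA, more cells of another type and more RNA per cell cannot be told apart. Cdkn2a probe signal did not separate the genotypes, at 6.25, 6.31 and 6.39 in KO and 6.42, 5.84 and 6.48 in WT. Trp53 was not analysed here, so neither deleted gene checked the labels.

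No Notch gene differed between the genotypes beyond the spread of the arrays. With limma, 0 of 10 were higher and 0 lower in KO at a Benjamini-Hochberg adjusted p under 0.05, against 0% of all 22180 genes higher and 0% lower. At an unadjusted p under 0.05 the count was again 0 of 10, where 3.32% of all genes (357 higher and 379 lower) met that level. In 0 of the 10 genes did all KO arrays lie above all WT arrays, which 3.63% of all genes did, and in 0 did all lie below, which 4.05% did. Of the 10 genes 6 had a fold change above 0 and 4 below, with a median log2 fold change of 0.11, beside -0.01 over all genes. Without WT replicate 3, and also with the row of highest variance per gene, the split was 5 and 5 and the median 0.02. The 95% interval of the difference lay inside a 2-fold change in either direction for each of the 10, as it did for 95.2% of all genes.

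**Figure D1:**
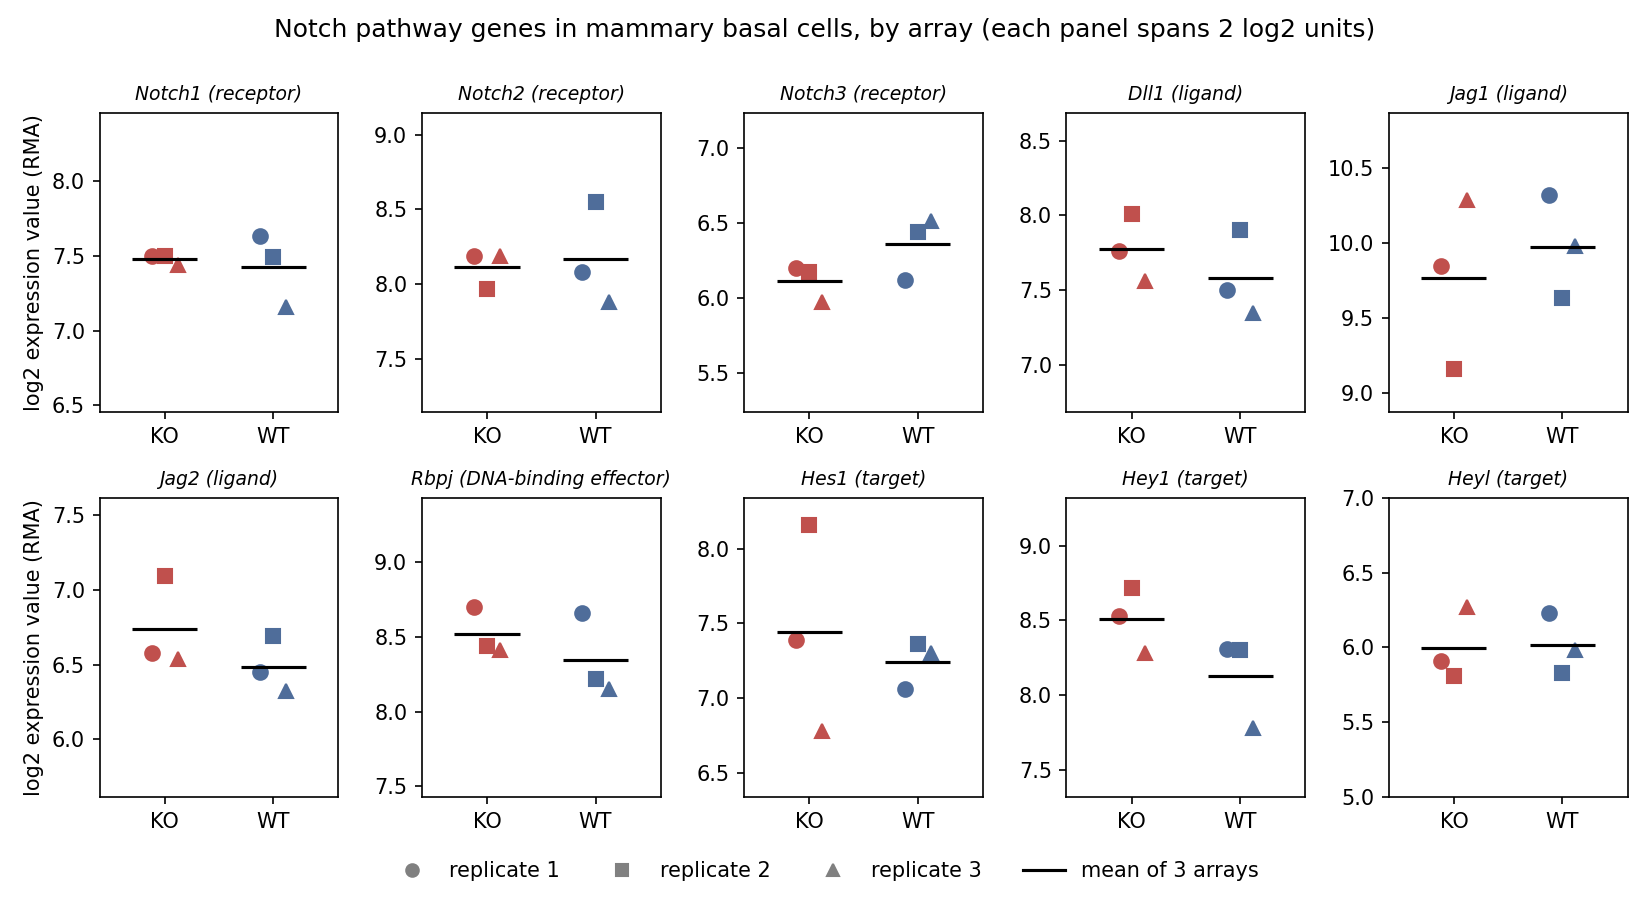
Log2 expression value (vertical axis, RMA) of each Notch gene on the 3 KO arrays (left, red) and the 3 WT arrays (right, blue), with symbols for the replicate number and a bar for the mean of 3 arrays. Every panel spans the same height, and in each the KO and WT points overlap, with the widest spread in the KO arrays of Hes1 (6.78 to 8.16) and Jag1 (9.16 to 10.29).

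Of the receptors, Notch1, which is linked in the mouse mammary gland to luminal commitment, was level. It read 7.50, 7.50 and 7.44 in KO cells and 7.63, 7.49 and 7.16 in WT cells. All 3 KO arrays fell inside the WT range. KO minus WT was 0.05 on the log2 scale (standard error 0.176, 95% interval -0.35 to 0.45), and its sign turned to -0.08 without WT replicate 3.

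Notch2, a second widely expressed receptor, read 8.19, 7.97 and 8.19 in KO cells and 8.08, 8.55 and 7.88 in WT cells. WT replicate 2 stood highest and WT replicate 3 lowest of the 6. Its log2 fold change of -0.05 (standard error 0.205, interval -0.52 to 0.41) turned to 0.14 without WT replicate 2 and to 0.02 without KO replicate 2. Notch2 ordered the arrays within each genotype as the fibroblast list did, as 2.53% of all genes did, though KO replicates 1 and 3 both read 8.19. That list read 7.25, 7.11 and 7.23 in KO and 6.73, 6.80 and 6.49 in WT. The part of fibroblasts in the Notch2 values was not tested.

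Notch3, a receptor also known from luminal progenitors and from pericytes, had the lowest fold change of the 10. It read 6.20, 6.17 and 5.97 in KO cells against 6.12, 6.44 and 6.51 in WT cells. WT replicates 2 and 3 lay above all KO arrays, whereas WT replicate 1 lay among them. Its log2 fold change was -0.24, with standard error 0.167 and an interval of -0.62 to 0.13 (limma unadjusted p = 0.177, adjusted p = 1). KO replicate 3 and WT replicate 1 were its lowest arrays, and they were also the lowest of the general luminal and hormone-sensing luminal lists. The general list read 8.46, 8.55 and 8.09 in KO and 8.12, 9.21 and 9.02 in WT. The hormone-sensing list (7 measured) read 6.24, 6.65 and 5.89 in KO and 5.88, 7.45 and 7.22 in WT. The luminal progenitor list (8 measured) read 7.51, 6.97 and 7.51 in KO and 6.98, 7.52 and 7.02 in WT. The pericyte list read 5.26, 5.55 and 5.59 in KO and 5.55, 5.11 and 5.54 in WT. In neither the luminal progenitor nor the pericyte list was KO replicate 3 among the lowest arrays. The part of luminal cells or pericytes in the Notch3 values was not tested. Without WT replicate 1 the Notch3 log2 fold change was -0.36, and without WT replicate 3 it was -0.17.

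Among the ligands, Dll1, a Delta-type ligand that marks a stem-like subset of mouse basal cells, read 7.76, 8.01 and 7.56 in KO cells and 7.50, 7.90 and 7.35 in WT cells. Each KO array exceeded the WT array of the same number, yet the groups overlapped because replicate 2 was high in both. The difference was 0.19 on the log2 scale (standard error 0.205, interval -0.28 to 0.65). A second, dimmer row annotated to Dll1 gave a mean difference of 0.10, of the same sign. In that row the replicate 3 arrays ran the other way, at -0.17. Without WT replicate 2 the fold change of the brighter row was 0.35, and without WT replicate 3 it was 0.07.

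Jag2, a Jagged-type ligand, ordered the arrays as Dll1 did. It read 6.58, 7.09 and 6.54 in KO cells and 6.45, 6.69 and 6.32 in WT cells. Replicate 2 was the highest array and replicate 3 the lowest in each genotype. Its log2 fold change was 0.25 (standard error 0.200, interval -0.21 to 0.70), and 0.07 without KO replicate 2. That within-genotype order was also the order of the basal marker list and of a list of immediate early and stress genes induced by dissociation, and 4.46% of all genes shared it. The stress list (12 measured, all with a higher KO mean, none past the threshold) read 10.60, 11.16 and 10.10 in KO and 10.27, 10.69 and 9.82 in WT. Of the basal list 4 genes had a higher and 7 a lower KO mean. The part of these lists in the Dll1 and Jag2 values was not tested.

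Jag1, the other Jagged ligand, ran differently. It read 9.85, 9.16 and 10.29 in KO cells and 10.32, 9.63 and 9.98 in WT cells. Replicate 2 was the lowest array of each genotype, and the KO arrays spanned more than the WT arrays. KO minus WT was -0.21 on the log2 scale (standard error 0.288, interval -0.86 to 0.45). Without KO replicate 2 it turned to 0.10, and without KO replicate 3 it was -0.47.

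Rbpj, the transcription factor through which Notch acts on DNA and whose promoter is printed above, read 8.70, 8.44 and 8.41 in KO cells and 8.66, 8.22 and 8.15 in WT cells. Replicate 1 was the highest array of both genotypes, and the ranges overlapped. For this row the log2 fold change was 0.17 (standard error 0.191, interval -0.26 to 0.61). A dimmer second row annotated to Rbpj disagreed in sign, at -0.06, with 5.97, 5.59 and 5.92 in KO and 6.23, 5.65 and 5.78 in WT, so no direction can be given for Rbpj from these rows.

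Of the target genes, Hey1, a repressor of the HEY family, had the highest fold change of the 10. It read 8.53, 8.72 and 8.28 in KO cells against 8.31, 8.30 and 7.78 in WT cells. KO replicates 1 and 2 lay above all WT arrays, and KO replicate 3 lay just below WT replicates 1 and 2. KO was 1.30 times WT, with an interval of 0.938 to 1.80 times, a log2 difference of 0.38 and standard error 0.208 (limma unadjusted p = 0.102, adjusted p = 1). Without WT replicate 3 the log2 fold change was 0.20, and leaving out any other array gave up to 0.49. Hey1 and Notch1 ordered the arrays as the endothelial list did in both genotypes, as 2.79% of all genes did. That list read 5.71, 5.72 and 5.65 in KO and 5.71, 5.61 and 5.56 in WT, with 5 of its 10 genes higher and 5 lower in KO, and its part in the Hey1 values was not tested. Notch1 read 7.50 on both KO replicates 1 and 2, so its match in KO rests on a gap smaller than the rounding used here. The list, too, barely separated these arrays.

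Hes1, a repressor that Notch shares with other signals as an inducer, varied most. It read 7.39, 8.16 and 6.78 in KO cells and 7.06, 7.36 and 7.30 in WT cells. The KO arrays held both the highest and the lowest of the 6 values, and their SD was 0.694 against 0.155 in WT. The mean difference was 0.20 on the log2 scale (standard error 0.312, interval -0.50 to 0.91). It turned to -0.16 without KO replicate 2 and was 0.53 without KO replicate 3. Hes1 ordered the arrays as the general luminal and hormone-sensing luminal lists did in both genotypes, an order that 5.73% of all genes shared. It matched the stress list within KO alone. The part of these lists in the Hes1 values was not tested.

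Heyl, the third HEY family gene, read 5.91, 5.81 and 6.27 in KO cells and 6.23, 5.83 and 5.98 in WT cells. The groups covered nearly the same range. A log2 fold change of -0.02 (standard error 0.181, interval -0.43 to 0.39) turned to 0.09 without WT replicate 1, to 0.02 without KO replicate 1 and to 0.07 without KO replicate 2. The 3 targets thus gave 0.38, 0.20 and -0.02, none past the threshold.

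**Figure D2:**
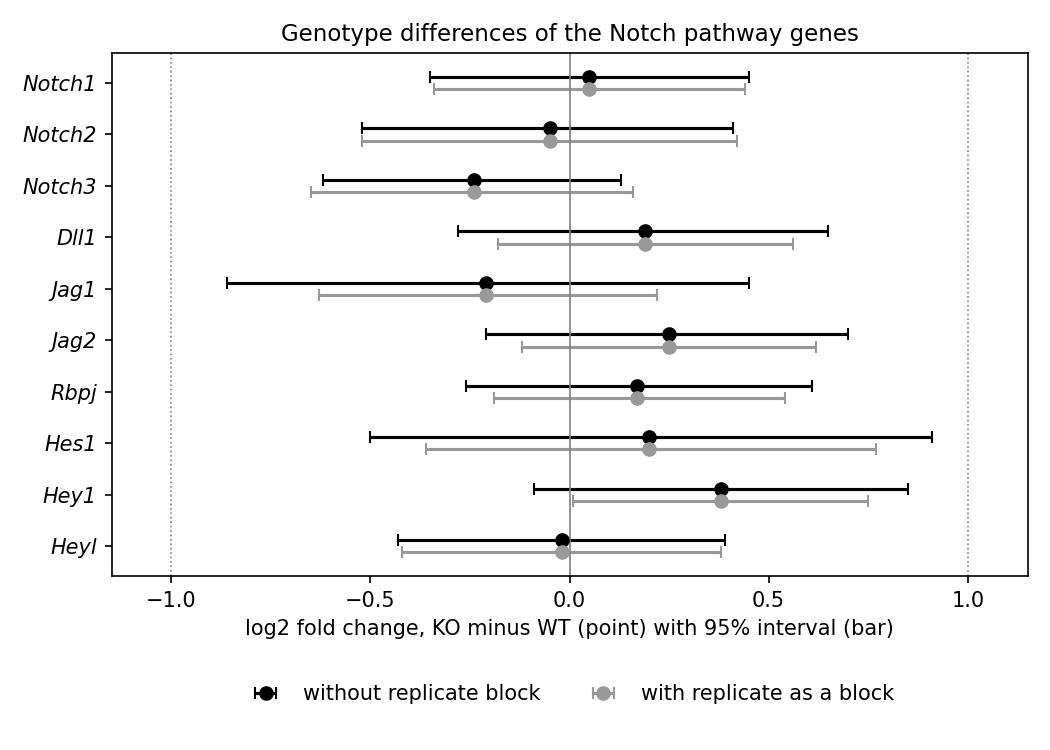
Log2 fold change (KO minus WT, horizontal axis) of each Notch gene as a point with its 95% interval as a bar, without (black) and with (grey) replicate as a block; dotted lines mark a 2-fold change. All intervals lie between the dotted lines and cover 0, except that of Hey1 with the block, which runs from 0.01 to 0.75.

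Arrays carrying the same replicate number deviated together to a small degree, so the same-numbered differences were also read. KO exceeded WT in all 3 pairs for 4 of the 10 Notch genes, which are Dll1, Jag2, Rbpj and Hey1, where 11.5% of all genes did so. KO was below WT in all 3 pairs for 0 of the 10, where 12.3% of all genes were. The Hey1 differences were 0.22, 0.42 and 0.50, and those of Jag2 0.13, 0.40 and 0.21. Dll1 differed by 0.25, 0.11 and 0.21, and Rbpj by 0.05, 0.22 and 0.26. The dimmer Rbpj row gave -0.26, -0.06 and 0.14, and with it in place the count was 3 of 10. The dimmer Dll1 row gave 0.02, 0.45 and -0.17, so with that row in place Dll1 would leave the count too. With replicate as a block, Hey1 reached an unadjusted p of 0.0456 in limma, with an adjusted p of 0.991, and the other 9 genes lay between 0.166 and 0.911 unadjusted. The list was chosen by name, and its share was not tested against that of all genes.

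**Figure D3:**
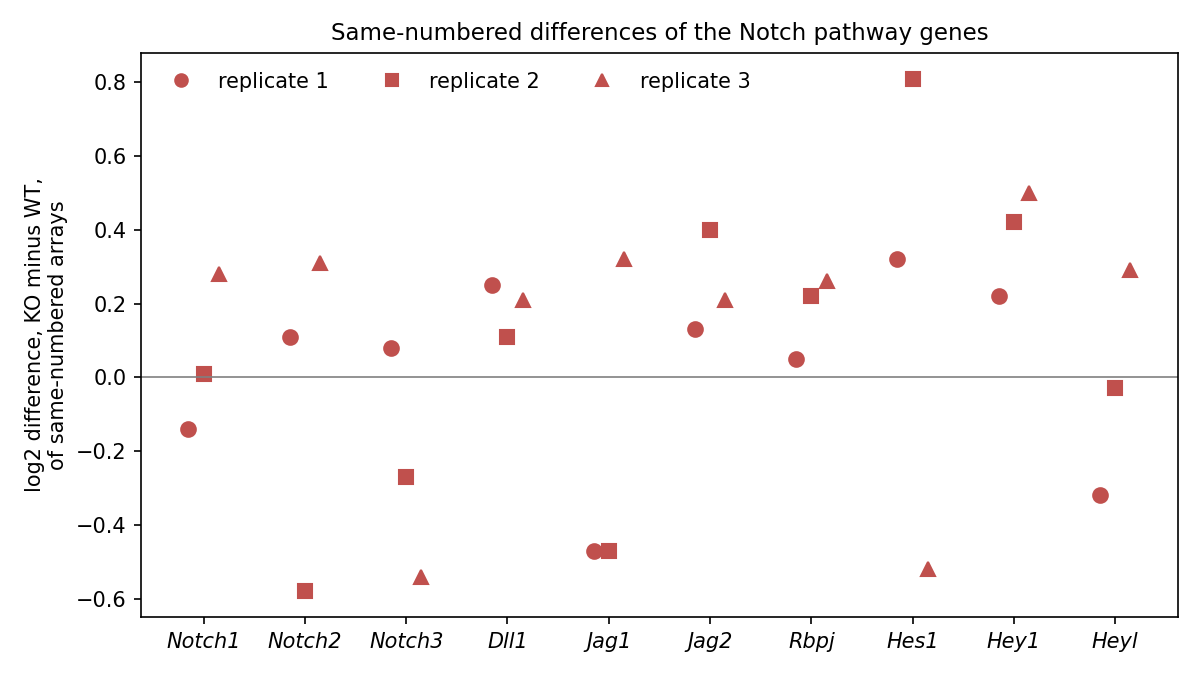
Log2 difference (vertical axis) between the KO array and the WT array of the same replicate number for each Notch gene, with symbols for the replicate number. The 3 points of Dll1, Jag2, Rbpj and Hey1 lie above 0, while those of the other 6 genes fall on both sides, from -0.52 to 0.81 in Hes1.

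Across the rest of the pathway no gene passed the adjusted threshold either. Of 63 further genes listed by role, 60 were measured, 34 with a fold change above 0 and 26 below, with a median log2 fold change of 0.04. With limma 0 of them passed at an adjusted p under 0.05, and 1 did at an unadjusted p under 0.05, where 3.32% of all genes did. The 95% interval lay inside a 2-fold change for 56 of the 60. KO exceeded WT in all 3 same-numbered pairs for 9 of the 60 (15%) and was below it in all 3 for 5 (8.33%), where all genes gave 11.5% and 12.3%.

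The gene past the unadjusted level without the block was Hey2, the HEY family repressor whose promoter is printed above. It read 5.07, 6.13 and 5.72 in KO cells and 5.18, 4.88 and 5.06 in WT cells. KO replicates 2 and 3 stood above every WT array, and KO replicate 1 lay among them. Hey2 had a log2 fold change of 0.60 and standard error 0.247 (limma unadjusted p = 0.038, adjusted p = 1), and 0.36 without KO replicate 2. Hes5, a classical Notch target in neural tissue, read 5.83, 5.67 and 5.55 in KO and 5.66, 5.99 and 5.78 in WT, a log2 fold change of -0.13. Hey2 and Hes5 both had means below the median of all genes, 5.78, so neither remained when dim genes were left out. Ccnd1, the cyclin D1 gene and a reported Notch target, read 7.48, 7.66 and 7.91 in KO and 7.83, 8.08 and 8.89 in WT, with KO replicate 3 above WT replicate 1. Its log2 fold change was -0.58 (limma unadjusted p = 0.061, adjusted p = 1), and -0.27 without WT replicate 3, the array in which G2/M genes also stood highest, with a list mean of 6.63, against 4.89 to 5.49 on the KO arrays and 4.96 and 5.43 on the other WT arrays. Ccnd1 differed by -0.35, -0.42 and -0.98 between same-numbered arrays, and with replicate as a block its unadjusted p in limma was 0.0126 and its adjusted p 0.882. The part of cycling cells in the Ccnd1 value was not tested. Of all 9 further targets 6 had a fold change above 0 and 3 below.

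The enzymes that cut the receptor leaned the other way without passing. Of 8 measured, 7 had a fold change below 0 and 1 above, with a median log2 fold change of -0.18. Adam17, a membrane protease, read 6.84, 6.79 and 6.75 in KO cells against 6.52, 7.67 and 7.39 in WT cells, a log2 difference of -0.40 (standard error 0.275). Ncstn, the nicastrin subunit of gamma-secretase, read 8.60, 8.77 and 8.63 in KO and 8.80, 9.37 and 8.76 in WT, a log2 difference of -0.31 (standard error 0.198). For Adam17 the WT arrays lay on both sides of the KO arrays, with WT replicate 1 the lowest of the 6.

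The mean over the 8 cleavage genes showed the same split, at 7.86, 8.01 and 7.88 in KO and 7.73, 8.34 and 8.24 in WT. WT replicate 1, again the lowest, was also low in the general luminal list (8.12) and the hormone-sensing luminal list (5.88), where WT replicates 2 and 3 read 9.21 and 9.02 and 7.45 and 7.22. The luminal progenitor list did not split the WT arrays in this way, at 6.98, 7.52 and 7.02. On the KO arrays the general luminal list read 8.46, 8.55 and 8.09 and the hormone-sensing luminal list 6.24, 6.65 and 5.89. KO replicate 3 was the lowest KO array in both, but not over the cleavage genes. The part of luminal cells in the cleavage gene values was not tested. Without WT replicate 1 the median of the cleavage genes was -0.33 and the log2 fold change of Adam17 -0.73, with a limma adjusted p of 0.316. Without WT replicate 2 these values were -0.13 and -0.16, and without WT replicate 3 the median was -0.08. Ncstn stood at -0.11 without WT replicate 2.

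**Figure D4:**
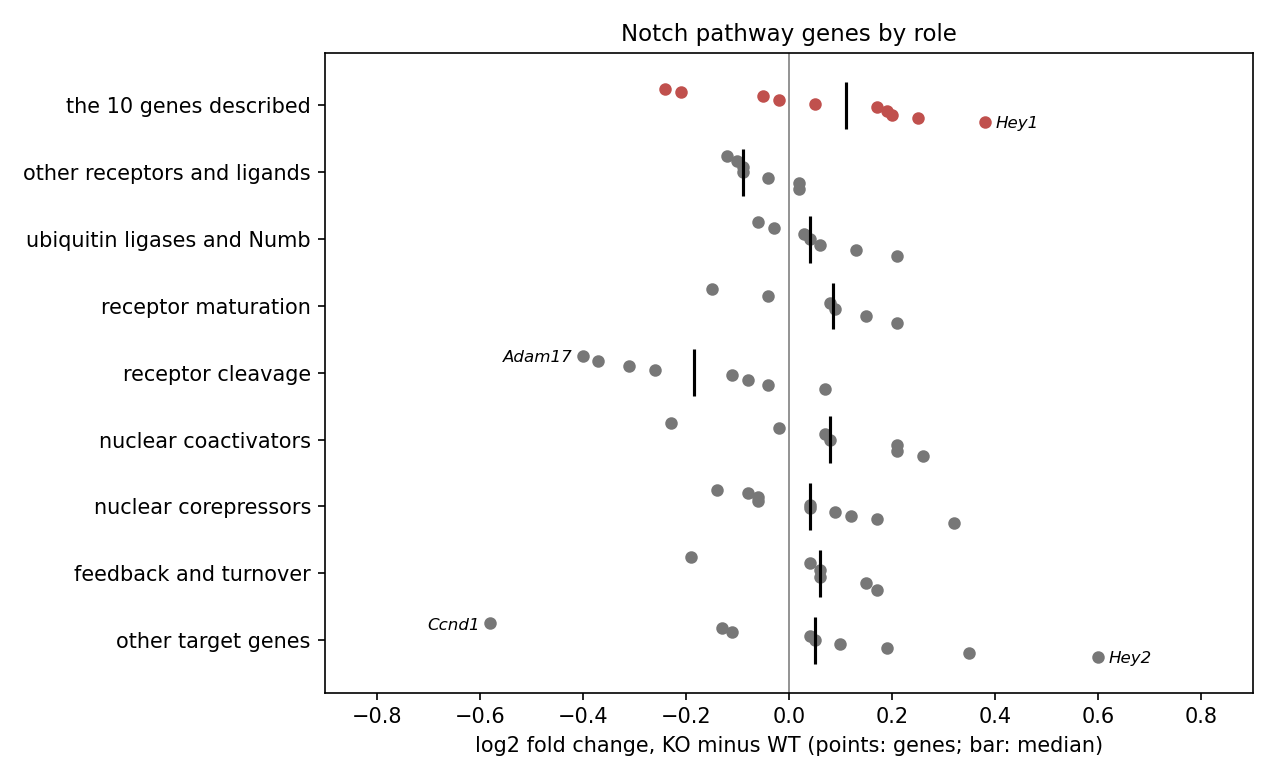
Log2 fold change (KO minus WT, horizontal axis) of the 10 Notch genes (red) and of 60 further pathway genes by role (grey), 1 point a gene, with a bar for the median of each role. Medians lie between -0.18 for receptor cleavage and 0.11 for the 10 genes, and Ccnd1 (-0.58) and Hey2 (0.60) lie farthest from 0.

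Other receptors and ligands were nearly level. Notch4, a receptor of endothelial cells, averaged 6.30 ± 0.0831 in KO and 6.29 ± 0.144 in WT (SD, n = 3 each). Dll4, an endothelial ligand, averaged 4.55 ± 0.0611 in KO and 4.66 ± 0.231 in WT. Dll3 had a log2 fold change of -0.10. All 7 genes of this role lay between -0.12 and 0.02.

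Of the genes that act on ligands or on receptor trafficking, 5 of 7 had a fold change above 0. Mib1, the ubiquitin ligase that activates ligands by driving their endocytosis, read 8.93, 8.61 and 8.83 in KO and 8.59, 8.64 and 8.53 in WT, a log2 fold change of 0.21. Neurl1b, another such ligase, had all KO arrays above all WT arrays, at 5.14 to 5.18 against 5.02 to 5.04, with a log2 fold change of 0.13 and an unadjusted p of 0.308 in limma, whose prior widens very small spreads.

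Receptor maturation genes were split 4 above and 2 below 0. Lfng, the Fringe glycosyltransferase that tunes which ligands a receptor answers, had a log2 fold change of 0.21, with 6.79, 6.85 and 6.79 in KO and 6.61, 6.38 and 6.82 in WT. The value was 0.09 without WT replicate 2 and 0.32 without WT replicate 3. Furin, the protease that processes receptors during their export, was below WT on all KO arrays, at 9.02 to 9.18 in KO against 9.23 to 9.30 in WT, with a log2 fold change of -0.15 and an unadjusted p of 0.340 in limma.

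In the nucleus, 5 of 7 coactivator genes and 6 of 10 measured corepressor genes had a fold change above 0. The Mastermind coactivators Maml1 and Maml3 each had a log2 fold change of 0.21, with all KO arrays above all WT arrays. Maml1 read 7.32, 7.28 and 7.44 in KO and 7.20, 7.07 and 7.13 in WT (limma unadjusted p = 0.202), and Maml3 read 6.92, 6.96 and 6.99 in KO and 6.86, 6.87 and 6.51 in WT (0.238). Without WT replicate 3 the log2 fold change of Maml3 was 0.09, while that of Maml1 stayed between 0.17 and 0.24 with any one array left out. Both are among 5 of the 60 genes whose groups did not overlap, 3 above and 2 below, beside shares of 3.63% above and 4.05% below over all genes. Besides Neurl1b and Furin they include Dlk2, a Delta-like protein named after its values were seen, with a log2 fold change of -0.04. Tle4, a Groucho-type corepressor of HES and HEY proteins, had a log2 fold change of 0.32, which was 0.01 without WT replicate 3 and 0.63 without WT replicate 1. Cir1, a corepressor partner of RBPJ, had 0.17, and -0.01 without KO replicate 2.

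Feedback and turnover genes had 5 of 6 members above 0, all small. Nrarp, a direct target that limits Notch signalling, read 6.81, 6.78 and 6.78 in KO and 6.81, 6.60 and 6.78 in WT, a log2 fold change of 0.06 with an interval of -0.28 to 0.40. Dtx4, a Deltex family ubiquitin ligase, had -0.19 and its relative Dtx1 0.15. A Dtx1 row of higher variance gave -0.28, so the Dtx1 rows disagreed in sign.

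Genes whose values moved most like a Notch gene over the 6 arrays were sought for Hes1, Jag1 and Hey1, the members of largest spread. Likeness was the root mean square difference between values centred on each gene's own mean. Nearest to Hes1 were Zfp874a, Gpsm2 and Ormdl3, at 0.118, 0.121 and 0.126 log2 units. Nearest to Jag1 were Fam83b, Riok1 and Lrrc38, at 0.102, 0.107 and 0.110. Nearest to Hey1 were Ftx, Pnrc1 and Tbc1d9, at 0.0434, 0.0581 and 0.0667. None of these 9 genes was in the Notch lists.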

How the data were processed

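RNA of sorted basal cells was hybridised to whole-transcript arrays, 1 per mouse, 3 KO and 3 WT. The authors deposited 1 log2 value per probe set and array, made with RMA and Transcriptome Analysis Console 4.0, per the submitters' processing notes. The log base was taken from RMA and the value range (1.98 to 13.87). Of 41345 rows, 23521 had 1 gene symbol in the platform annotation, 1814 several and 16010 none here. Rows with 1 symbol were used, keeping the row of highest mean per gene, which left 22180 genes.

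KO minus WT was tested across all genes with limma 3.58.1 in R 4.3.3 (lmFit, eBayes with a trend), two-sided, Benjamini-Hochberg adjusted, threshold 0.05, with moderated standard errors and per-gene 95% intervals not adjusted for the number of genes. Probe sets differ in response, so levels were not compared between genes, except to set apart dim genes. These are genes with a mean below the median of all genes. Deviations from group means correlated at 0.121, 0.25 and 0.127 between same-numbered arrays across genes. Only the data, and no label, speak for this pairing, and WT replicate 1 correlated at 0.13 with KO replicate 3. The fit without the block was the main one.

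The members, gene lists and tests were chosen with earlier results of these data known. All 10 members were named. From each further role the 2 genes of smallest p were named, with Notch4, Dll4, Hes5 and Nrarp. On simulated arrays with 22180 genes and 200 changed, the fit recovered 3.2% of genes changed by 0.5, 48.6% at 1 and 90.1% at 2 log2 units, with 4.65 false calls per run. The simulated noise was normal and drawn independently for each gene and array, so shifts shared by many genes of an array were not part of it. Figures used matplotlib 3.10.9. As alternatives, each array was left out in turn, and the threshold, block, row choice, dim genes, centring, normalization, array weights and prior were varied.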

Additional observations from a re-analysis of the deposited data

How the results depend on the processing

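The count of Notch genes, of further pathway genes and of all genes past the adjusted threshold was 0 under every alternative run, including replicate as a block, array weights and an adjusted threshold of 0.1. With replicate as a block the fold changes, Hey1 at 0.38, are the same by design. Every replicate number holds 1 array of each genotype, so only standard errors and p-values could move. No adjusted call changed with the block. The smallest adjusted p of a Notch gene under any alternative was 0.504, with array weights. At an unadjusted p under 0.05, 1 Notch gene passed with array weights and 1 with the block, Hey1 both times, where 1970 and 1112 of all genes did, against 736. Among the further pathway genes this count was 4 with array weights, 2 with the block and 0 with dim genes left out. In that last setting 319 of all genes that remained passed. With 1 array left out the pathway count lay between 0 and 8, and the count over all genes between 554 and 1788. Of these leave-out settings the one without WT replicate 1 gave the highest of both counts, 8 and 1788. Of 140 alternative values of the 10 genes, 130 kept their sign and 10 did not. Part of the 130 could not turn, since the prior, the block and leaving out dim genes do not change these fold changes. Nor can the row choice change those of genes with 1 row. Notch3, Dll1, Jag2 and Hey1 kept their sign under all alternatives. Notch2 turned to 0.12 with array weights and Rbpj to -0.06 with the row of highest variance. With 1 array left out, Notch1 ranged from -0.08 to 0.15, Notch2 from -0.20 to 0.14, Jag1 from -0.47 to 0.10, Hes1 from -0.16 to 0.53 and Heyl from -0.16 to 0.09. Of the further genes, Notch4 turned to -0.01 with centred arrays, Dtx1 to -0.06 with the mean of its rows and -0.28 with the row of highest variance, and Hes5 to 0.09 with that row. With 1 array left out Cir1 ranged from -0.01 to 0.28, Notch4 from -0.05 to 0.09 and Nrarp from -0.004 to 0.10. The causes were not tested. With 3 arrays per genotype and independent noise, the fit on simulated arrays recovered 3.2% of log2 changes of 0.5, which limits what a missed threshold can say.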
